A study of Mus musculus with 3 samples.

Results

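Potassium channel, TRP channel and store-operated calcium entry genes were examined by RNA sequencing in ILC2s, the group 2 innate lymphoid cells, which live in tissues, lack rearranged antigen receptors and secrete type 2 cytokines. Members were chosen by gene symbol alone: protein-coding genes whose symbol starts with Kcn, Trpa, Trpc, Trpm or Trpv, or is a numbered Orai, Stim or Itpr. The rule gave 126 genes of 27179 gene IDs in the table, of which 94 were Kcn genes. It also caught Trpc4ap, the gene of a TRPC4-associated protein, and Trpc5os, a protein-coding gene on the strand opposite Trpc5, neither of which encodes a channel. The study held 3 libraries of ILC2s from wild-type C57BL/6 mice with no treatment. Each library was treated as 1 mouse, called mouse 1, 2 and 3 after the sample numbers. The sort gate required KLRG1, CD127, CD90.2 and CD45 on the cells and removed those with B220, CD11c, CD11b, NK1.1, CD8, CD5 or CD3. The sources used here do not name a tissue, a time of collection, an age or a sex. With 1 group there was no contrast between conditions, and the comparisons below are between genes within a library and between mice.

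In lymphocytes, receptor signals make inositol trisphosphate (IP3), which opens IP3 receptors (Itpr genes) in the endoplasmic reticulum and empties its calcium store. STIM proteins sense the loss and open ORAI pores in the plasma membrane, the route of store-operated calcium entry. Potassium channels carry the counter-current that keeps the membrane negative while calcium enters, and TRP channels are cation channels with roles in magnesium and calcium transport, temperature sensing and depolarization. In T cells the voltage-gated channel encoded by Kcna3 and the calcium-activated channel encoded by Kcnn4 are the classical potassium channels.

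The libraries held 17819551 to 26374248 counts. Levels are CPM, which are counts scaled to 1000000 on normalised library sizes, and a gene was called detected at 1 CPM or more in each of the 3 libraries. A count of 0 allows up to 3 counts, which is 0.115 to 0.171 CPM in these libraries, counting error only. All 10 ILC2 marker genes were detected, with Gata3 at 381 to 525 CPM and Klrg1 at 1106 to 1562 CPM. Of markers of group 3 innate lymphoid cells, Il22 had 9.35 to 32.9 CPM, Il23r stayed under 0.2 CPM and Ccr6 had no count. Of 7 B and plasma cell markers 5 were detected, and their summed level was 12125, 33877 and 62150 CPM in mice 1, 2 and 3, while Ms4a1 and Pax5 had no count. Of 6 NK cell and ILC1 markers 2 were detected, with summed levels of 8.47, 243 and 55.0 CPM, while Eomes and Tbx21 had 1 count each. In sorted bulk RNA, fewer cells of a type and less RNA per cell cannot be told apart.

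Most of the channel genes gave no reads. Of the 126 members, 13 were detected, 11 reached 1 CPM in only 1 or 2 libraries, 22 had counts but stayed under 1 CPM, and 80 had no count in any library. Detection was therefore 10.3% of members, beside 38% of all 20979 protein-coding genes and 31.1% of all gene IDs. No count was found for 63.5% of members and for 38.2% of protein-coding genes, and 8.73% of members against 12.2% of protein-coding genes reached 1 CPM in 1 or 2 libraries. Detection differed by role. All 3 IP3 receptors and 3 of 5 Stim and Orai genes were detected, but only 1 of 22 TRP genes and 5 of 94 Kcn genes. Without mouse 2 the detected members numbered 18, because Orai2, Orai3, Kcnmb1, Kcna4 and Kcnk6 fell short of 1 CPM in that mouse alone.

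**Figure D1:**
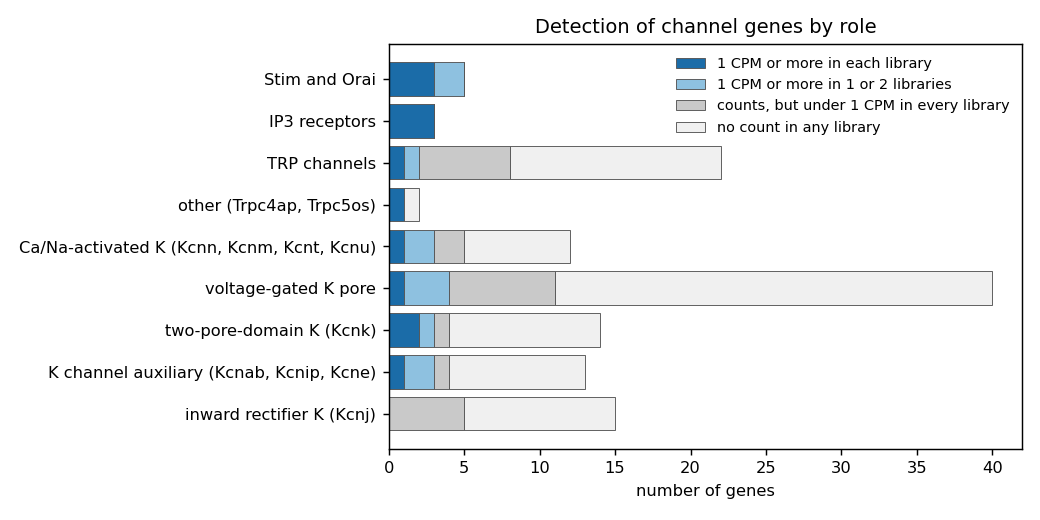
Number of genes in each role group (horizontal axis), split by detection class (colours). The 3 IP3 receptors and the Stim and Orai genes are the only groups in which every member had a count. The 40 voltage-gated pore genes hold 29 with no count.

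Kcnn4, Kcnk1 and Kcnk5, detected pore-forming potassium channel genes, are shown by the coding stretch of their selectivity signature, the short loop that lets potassium pass and holds back sodium. The stretches come from GENCODE M21 coding sequences, with 15 flanking bases on each side, and the capitals mark the codons of threonine, then valine, isoleucine or leucine, then glycine, then tyrosine, phenylalanine or leucine, then glycine. Kcnk5 encodes a channel with tandem pores, and both of its stretches matched. In Kcnk1, also a tandem-pore gene, 1 stretch matched.
Kcnn4: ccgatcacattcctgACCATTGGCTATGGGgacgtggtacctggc
Kcnk1: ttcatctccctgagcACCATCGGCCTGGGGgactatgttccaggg
Kcnk5 copy 1: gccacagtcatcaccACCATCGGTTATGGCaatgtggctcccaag
Kcnk5 copy 2: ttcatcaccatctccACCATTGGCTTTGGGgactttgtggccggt
The signature was present in 33 of 40 voltage-gated pore genes, 14 of 15 inward rectifier genes, 14 of 14 tandem-pore genes and 5 of 12 calcium- or sodium-activated genes, a group that includes auxiliary Kcnmb subunits. The pore genes Kcnn1, Kcnn2 and Kcnn3 of that group also had no match, so the pattern misses some potassium pores. The signature was absent from all 13 auxiliary genes and all 5 Stim and Orai genes, and it was found in 0.682% of all 20664 coding sequences examined. Single matches in Itpr2 and Trpv3 show that a match is a description of letters only. No protein table was used here, so no amino acid sequence is shown.

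Among the Stim and Orai genes, Orai1 had the highest CPM in each mouse. Orai1 (chromosome 5, 123015074 to 123030452, mm10), the pore subunit of store-operated entry, had 76.5, 60.6 and 164 CPM in mice 1, 2 and 3. Mouse 3 was 2.70 times mouse 2, and the mean was 100.3 ± 55.5 CPM (SD, n = 3). Orai3, a related pore subunit, had 3.49, 0.796 and 16.4 CPM. It was just under 1 CPM in mouse 2 with 14 counts, so it was not called detected. The detected member nearest to that limit was Stim2, at 1.59 CPM in mouse 1. Orai2, the remaining pore subunit, had 9.04, 0.0569 and 7.06 CPM, and its value in mouse 2 rested on 1 count against 205 and 184 in the other libraries. All 3 Orai genes were lowest in mouse 2, and Orai1 and Orai3 were highest in mouse 3.

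The calcium sensors had different orders of level across the mice. Stim1 (chromosome 7, 102261514 to 102437319), the main sensor of the store, had 15.5, 10.6 and 17.8 CPM. Stim2, a sensor that responds to smaller losses of stored calcium, had 1.59, 14.6 and 5.41 CPM, a 9.20-fold range in which mouse 2 was highest and mouse 1 lowest. The summed NK cell and ILC1 markers had the same order, mostly from Gzma at 7.19, 229 and 48.2 CPM. Prf1 and Klrb1c, not detected in every mouse, shared that order. Ncr1, the other detected marker of the list, had 1.24, 2.10 and 3.57 CPM, highest in mouse 3. The part of such cells in the Stim2 level was not tested. Stim1 was lowest in the mouse in which Stim2 was highest.

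All IP3 receptors were detected. Itpr1 (chromosome 6, 108213083 to 108551116) had 127, 227 and 114 CPM and the highest mean of all 126 members, 156 ± 62.0 CPM (SD, n = 3). Itpr2 had 30.4, 33.4 and 24.1 CPM, within a 1.39-fold range. Itpr3 had 14.5, 13.4 and 7.63 CPM. All 3 were lowest in mouse 3, and their order by CPM was the same in each mouse.

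Gene levels were compared per kilobase of summed exon length, because longer transcripts give more reads in full-length libraries. On this scale Orai1 was the highest member, at 33.3, 26.4 and 71.4 CPM per kb, above Itpr1 at 6.94, 12.4 and 6.21 in every library. Kcnn4 followed with a mean of 4.68 ± 2.59 CPM per kb (SD, n = 3) and overlapped the range of Itpr1. Among the detected members, means of Trpm7 (2.99 ± 1.39), Kcnk1 (2.85 ± 2.06), Kcnab2 (2.37 ± 0.531), Itpr2 (1.98 ± 0.321) and Kcnq5 (1.84 ± 0.234) came next, each overlapping the ranges of its neighbours in this order. Stim1 (1.41 ± 0.353), Stim2 (1.40 ± 1.30) and Itpr3 (1.31 ± 0.41) could not be separated, and Kcnk5 (0.956 ± 0.280) and Trpc4ap (0.902 ± 0.262) were the lowest detected members. Trpc4ap has 8753 bases of summed exons but 3204 in its longest transcript, so its rank depends on the length used.

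Orai1 exceeded Orai3 in 3 of 3 mice by 4.27 ± 1.14 on the log2(CPM + 0.5) scale per kb (SD, n = 3). The exact two-sided sign-flip permutation p was 0.25, the smallest that 3 libraries allow, so no such difference can pass 0.05. Orai1 also exceeded Orai2 in 3 of 3 mice with the same smallest exact p, and no fold is given because Orai2 had 1 count in mouse 2. Orai1 held 86.4% ± 0.613 (SD, n = 3) of the summed CPM per kb of the Stim and Orai genes. Stim1 exceeded Stim2 in 2 of 3 mice by 0.36 ± 1.70 (exact permutation p = 0.75), with differences of 1.93, -1.46 and 0.62 in mice 1, 2 and 3. Without mouse 1 the mean turned to -0.42, so the Stim1 and Stim2 levels did not differ beyond the spread between mice.

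Among IP3 receptors, Itpr1 exceeded Itpr2 in 3 of 3 mice by 2.03 ± 0.37 and Itpr3 by 2.62 ± 0.49 on the same log2 scale per kb (SD, n = 3). Itpr2 exceeded Itpr3 in 3 of 3 mice by 0.59 ± 0.28, and each of these exact permutation p-values was 0.25. Itpr1 held 71.2% ± 5.68 of the group's summed CPM per kb. These were 3 of 8 pairs compared, and no adjustment over the 8 can bring any p under 0.25.

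**Figure D2:**
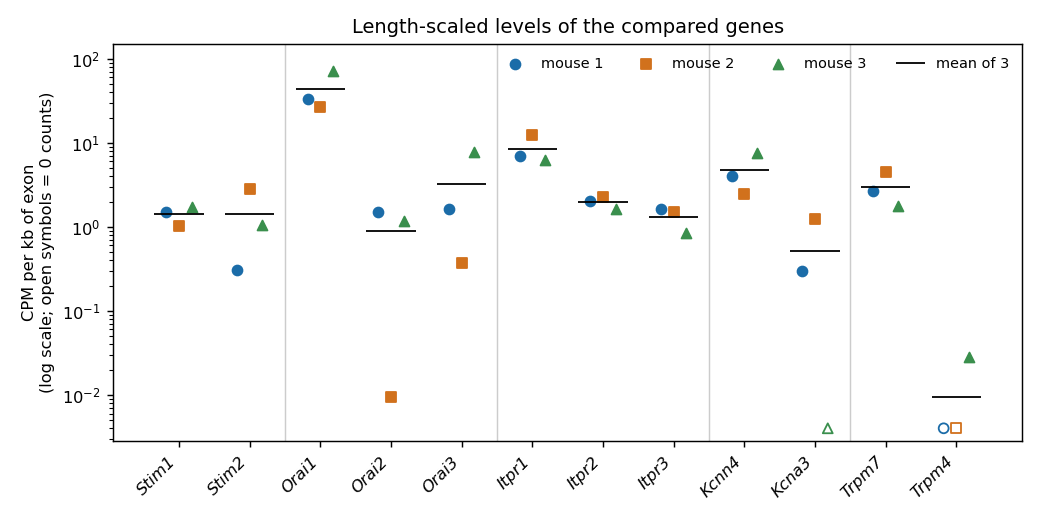
CPM per kb of exon (log axis) of the genes in the 8 compared pairs, with points for the 3 mice, lines for the means and open symbols for 0 counts. Orai1 stands above both other Orai genes in every mouse, and Stim1 and Stim2 overlap.

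The calcium-activated potassium channel gene of lymphocytes had the highest mean per kb of the potassium channel genes, and it was the highest on that scale in mice 1 and 3 but not in mouse 2. Kcnn4 (chromosome 7, 24369826 to 24385212) encodes the intermediate-conductance channel that calcium and calmodulin open, and had 20.6, 12.7 and 38.5 CPM in mice 1, 2 and 3. It was highest in mouse 3 and lowest in mouse 2, as Orai1 was. In mouse 2 its 2.49 CPM per kb lay below Kcnk1 at 2.75 and the auxiliary gene Kcnab2 at 2.94. Kcnn4 has 5115 bases of summed exons but 1990 in its longest transcript, so its place in mouse 2 depends on the length used. Kcna3, the voltage-gated channel of T cells, had 0.574, 2.33 and 0 CPM, from 13, 41 and 0 counts. Kcnn4 exceeded Kcna3 per kb in 3 of 3 mice (exact permutation p = 0.25, the smallest possible), and no fold is given because Kcna3 had no count in mouse 3. Of 6 T cell markers 3 were detected, Trac at 12.9, 14.7 and 13.0 CPM, Cd3e at 9.26, 8.02 and 3.49 CPM and Cd3d at 3.13, 1.19 and 1.57 CPM, while Cd4 and Cd8a were at or under 0.0441 CPM. Their part in the levels of Kcnn4 and Kcna3 was not tested.

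Other calcium- or sodium-activated members were uneven, under 1 CPM or without a count. Kcnmb1, an auxiliary subunit of the large-conductance channel, had 5.74, 0.171 and 1.69 CPM, while Kcnma1, the gene of that channel's pore, had no count in any library. Kcnu1, a sperm-specific channel gene in the mouse, had 47 counts in mouse 3 and none in mice 1 and 2. Kcnn4 held 86.5% ± 10.8 (SD, n = 3) of the summed CPM per kb of this group of 12 genes, of which 7 had no count. Of 5 stromal, endothelial and muscle markers 1 was detected, and their summed level was 37.1, 20.9 and 60.8 CPM. Among them the muscle genes Acta2, at 0.397, 0.455 and 41.6 CPM, and Des, at 0, 0 and 0.729 CPM, were highest in mouse 3. Kcnu1 was highest in that mouse too. Pecam1, the detected marker, had 36.4, 19.7 and 17.7 CPM and was highest in mouse 1, as Kcnmb1 was. The part of such cells in these levels was not tested.

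Of the 40 voltage-gated pore genes, Kcnq5 (chromosome 1, 21398399 to 21962650) was the only one detected. It encodes a channel of the M-current type known from neurons and smooth muscle. It had 15.8, 14.4 and 12.3 CPM, and its 1.29-fold range was the narrowest of the detected members. Kcna4, the gene of a rapidly inactivating channel, had 102, 10 and 49 counts, which reached 1 CPM in mice 1 and 3. Kcnd2, a gene of the transient outward current, had 1, 27 and 10 counts and reached 1 CPM in mouse 2 only. No mouse held both genes at 1 CPM. Kcns3 and Kcnh6 had means under 0.4 CPM, and 29 genes of the group had no count, among them Kcna2, Kcna5 and Kcnh2. Neuronal and glial markers were low, with Uchl1 and Sox10 at 0 counts and Elavl4 at 3.97, 0.626 and 4.22 CPM.

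Tandem-pore channels set the resting potential of many cells. Kcnk1 had 1.90, 6.14 and 11.1 CPM in mice 1, 2 and 3, a 5.84-fold range, and Kcnk5, an acid-sensitive channel, had 3.31, 2.27 and 4.18 CPM. Kcnk1 was lowest in mouse 1 and highest in mouse 3, the same order as the summed B and plasma cell markers given above. The part of those cells in its level was not tested. An annotated antisense transcript shares 8.01% of the Kcnk1 exon length, and the kit does not mark strand. Kcnk6 had 4.19, 0 and 1.84 CPM, so its absence from mouse 2 contrasted with 95 and 48 counts in the other libraries. The summed gut epithelium markers, mostly Epcam, were also lowest in mouse 2. The summed myeloid markers and the summed mast cell, basophil and eosinophil markers were highest in mouse 2. Of the latter list, Fcer1a and Prg2 were highest in that mouse. Cpa3 of the same list was highest in mouse 1 and lowest in mouse 2, at 4.72 CPM, the order of Kcnk6. The part of such cells in the Kcnk6 level was not tested. The remaining 11 of the 14 tandem-pore genes stayed under 1 CPM, and 10 of them had no count.

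Among auxiliary subunits of potassium channels, Kcnab2, a beta subunit that binds voltage-gated channels, had 238, 288 and 335 counts and a mean of 13.2 ± 2.96 CPM (SD, n = 3). Its level per kb was not separable from that of Kcnq5, the only detected voltage-gated pore gene. Kcnip3, which also encodes the calcium-binding repressor DREAM, had 57 counts in mouse 2 and 0 in mice 1 and 3. Kcnrg, a regulator of voltage-gated channels, had 0, 0.171 and 1.65 CPM. No Kcne gene had a count. None of the 15 inward rectifier genes reached 1 CPM, and the summed level of that group was 0.132 to 0.227 CPM.

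Trpm7 (chromosome 2, 126791558 to 126876261), a channel fused to a kinase that carries magnesium and other divalent cations, was the only TRP gene detected. It had 30.1, 51.2 and 20.3 CPM, highest in mouse 2 and lowest in mouse 3, the order in which Itpr1 also had its highest and lowest mouse. Trpv2, a TRP channel known in immune cells, had 0.176, 0 and 2.80 CPM. Trpm4, a calcium-activated channel that depolarizes T cells, had 0, 0 and 8 counts. Trpm7 exceeded Trpm4 in 3 of 3 mice (exact permutation p = 0.25), and no fold is given because of these low counts. Trpc1 had 5 counts in mouse 2 and none elsewhere, and Trpm2 had 10 counts in mouse 1 only. The temperature and irritant sensor genes Trpv1 and Trpm8 had no count, and Trpa1 had 1. Trpc4ap had 147, 117 and 275 counts, a mean of 7.90 CPM.

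**Figure D3:**
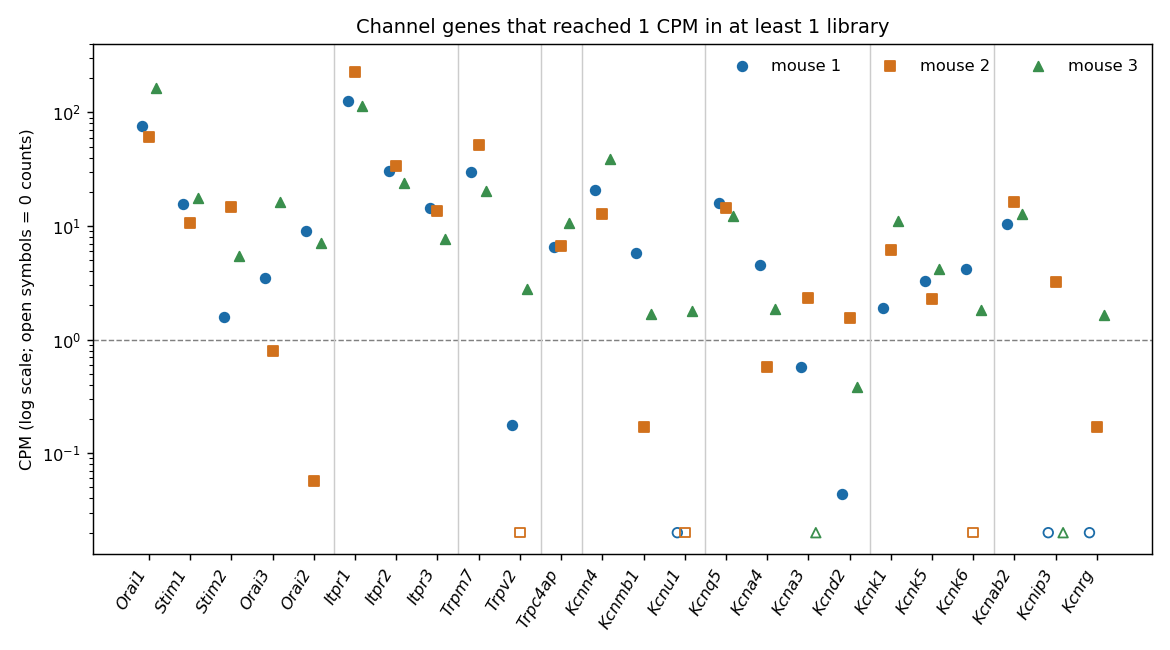
CPM (log axis) of the 24 members that reached 1 CPM in at least 1 library, ordered by role, with points for the 3 mice, open symbols for 0 counts and a dashed line at 1 CPM. Orai1 and Itpr1 lie above 60 CPM in all mice, and Orai2, Kcnmb1 and Kcnk6 drop in mouse 2.

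Between-mouse spread was then set against that of genes of similar abundance. In edgeR's quasi-dispersion F test with Benjamini-Hochberg adjustment over 9175 genes, 0 of the 15 members tested passed an adjusted p of 0.05, beside 0.207% of all genes. At an unadjusted p under 0.05 2 members remained, beside 4.46% of all genes. They were Orai3, with 5.91 times the quasi-dispersion of the trend, and Orai1, with 5.76 times, each at an adjusted p of 0.979 in edgeR. DESeq2 marked 0 members as dispersion outliers and limma called 0, with 2 under an unadjusted p of 0.05. Orai2 was too low in mouse 2 to enter the test. The detected members had a median coefficient of variation of 31.2% between mice, beside 28.5% for all detected genes. Calls at this size are limited: in simulated data on 9175 genes, a rise of 8-fold in 1 library was recovered for 4 of 100 genes and a rise of 64-fold for 89 of 100.

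Base composition moved with the same libraries. Across 8326 detected genes, Spearman's rho between the GC share of the longest transcript and a gene's deviation from its mean over the mice was -0.00744, -0.203 and 0.211 in mice 1, 2 and 3, across genes that share their libraries and are not independent. When the genes were split into 5 equal classes by GC, the median log2 deviation in the class above 54.8% was -0.16 in mouse 2 and 0.16 in mouse 3. Orai1, with 58.6% GC, deviated by -0.59 in mouse 2 and 0.84 in mouse 3, and Kcnn4, with 60.4%, by -0.74 and 0.82. Trpm7, with 40.1% GC, deviated by 0.69 and -0.62. In the class poorest in GC the medians were 0.09 and -0.11. The members' deviations were larger than these medians and had the same sign in these 3 genes. Of the GC-rich members, Kcnab2, with 58.0% GC, deviated by 0.32 in mouse 2 and -0.02 in mouse 3, and Itpr3, with 57.5%, by 0.22 and -0.55, both against that direction. Kcna3, with 60.3% GC but not detected, deviated by 1.30 and -1.20, also against it. The part of base composition in these differences was not tested. By transcript length the corresponding rho was 0.128, 0.00381 and -0.116.

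**Figure D4:**
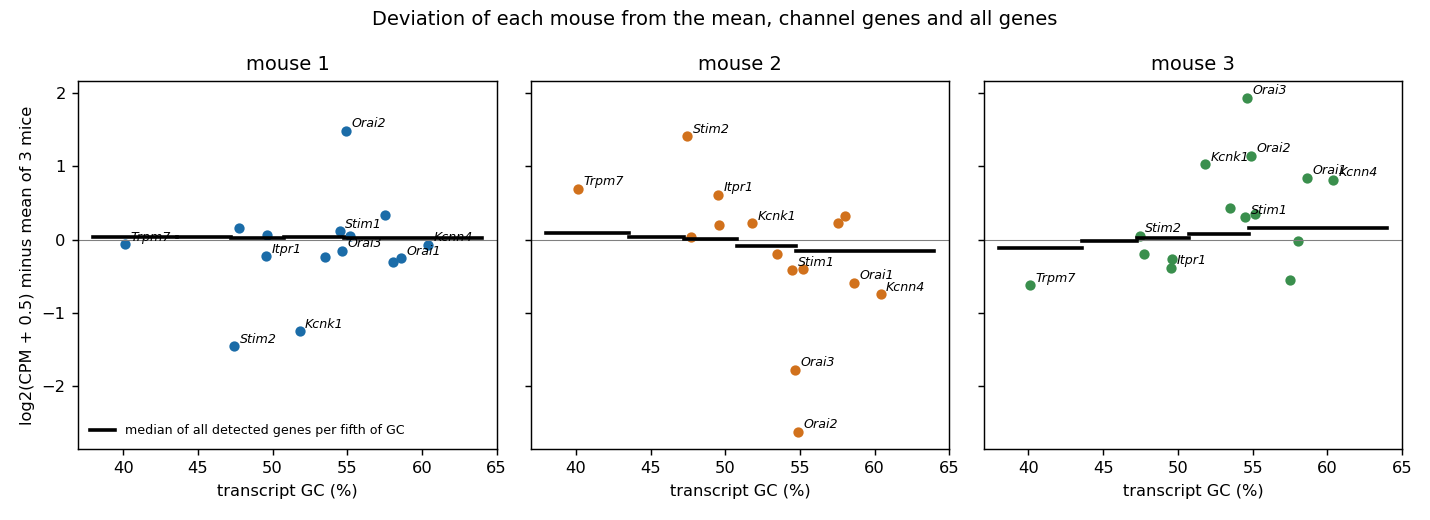
Log2 deviation of each mouse from the mean of 3 (vertical axis) against transcript GC (horizontal axis) for the 13 detected members with Orai2 and Orai3 (points), with the median of all detected genes in each of 5 classes of GC (black lines, drawn within the plotted range). In mouse 2 the Orai genes and Kcnn4 lie below the median of their class, and in mouse 3 above it.

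Promoters of detected members were richer in the dinucleotide CG, the site of DNA methylation in mammals. RefSeq promoters of GRCm38.p6, 250 bases before to 50 after the most upstream start listed in the promoter table, matched 97 of 126 members. That start was the RefSeq start of the gene itself in 50 of the 97 and lay inside the gene in the rest, by 437 bases in Kcnn4 and 6305 in Stim1. The median count of CG, which reads the same on both strands, was 26 in 12 detected members and 9 in 85 others. The same medians were 22 in 6500 detected and 7 in 10283 other protein-coding genes, so the members followed the difference found across the genome. In a comparison chosen after seeing the data, limited to genes whose listed start is the gene's own, the medians were 26 in 7 detected and 8 in 43 other members, and 21 in 3512 detected and 4 in 6424 other protein-coding genes. At least 1 CG was present in 95.1% of all 18458 promoters. The detected potassium channel genes varied, from 3 in Kcnq5 and 6 in Kcnn4 to 26 in Kcnk5, while Orai1, Stim1 and Stim2 had 36, 38 and 39.

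**Figure D5:**
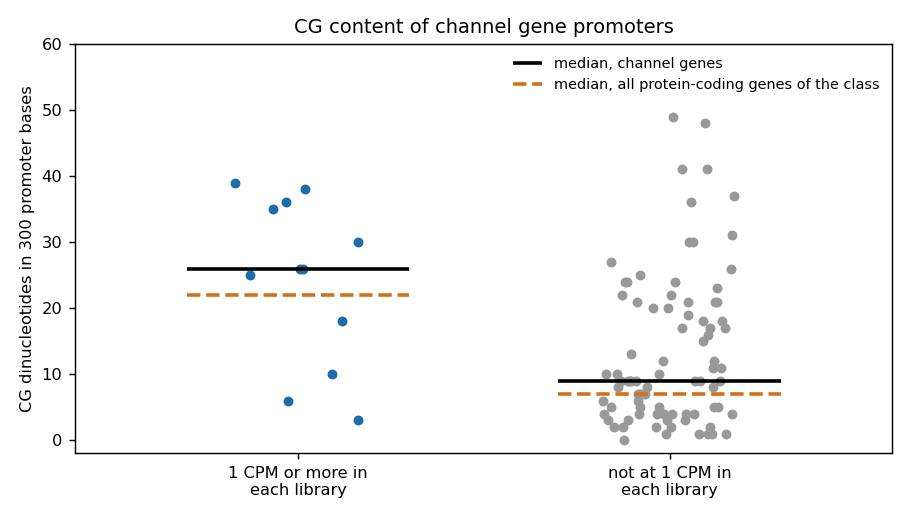
Number of CG dinucleotides in 300 promoter bases (vertical axis) of 12 detected and 85 other members (points), with medians of the members (black) and of all protein-coding genes of the class (dashed orange). Both pairs of medians are higher for detected genes, and the ranges of the members overlap.

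The promoters of Orai1 and Kcna3, both around the gene's own start, are shown because they set apart CG density and level: 36 in the highest channel gene per kb and 37 in Kcna3, which was not detected. They are read 5′ to 3′ on the plus strand of GRCm38.p6, with CG in capitals, at chr5:123014824-123015123 for Orai1 and chr3:107035912-107036211 for Kcna3.
Orai1: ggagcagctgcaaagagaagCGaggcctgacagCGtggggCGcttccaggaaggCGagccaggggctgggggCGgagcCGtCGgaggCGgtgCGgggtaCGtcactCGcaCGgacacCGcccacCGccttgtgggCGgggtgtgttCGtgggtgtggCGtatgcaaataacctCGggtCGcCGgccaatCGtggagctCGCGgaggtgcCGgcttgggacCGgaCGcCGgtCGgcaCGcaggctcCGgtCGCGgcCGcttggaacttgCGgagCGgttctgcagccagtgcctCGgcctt
Kcna3: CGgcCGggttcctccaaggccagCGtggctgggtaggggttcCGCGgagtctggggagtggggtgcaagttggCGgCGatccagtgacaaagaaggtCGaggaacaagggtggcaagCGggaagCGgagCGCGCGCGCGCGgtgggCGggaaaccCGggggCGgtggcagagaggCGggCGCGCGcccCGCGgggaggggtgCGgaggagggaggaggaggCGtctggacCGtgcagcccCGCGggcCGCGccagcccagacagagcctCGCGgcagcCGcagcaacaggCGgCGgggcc

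Genes that work with these channels were read from 6 lists, chosen with earlier results of these data known, which include 22 other calcium channel genes. Of the 67 genes 38 were detected, a larger share than the 7978 of 20979 protein-coding genes (38%). Another 12 of the 67 reached 1 CPM in some libraries and 6 had no count. Among genes of calcium signalling 11 of 13 were detected, including the calcineurin catalytic subunit Ppp3ca (66.9 ± 7.15 CPM; SD, n = 3) and the NFAT factor gene Nfatc3 (39.5 ± 17.6). Plcg1, the phospholipase that makes IP3 downstream of the T cell receptor, had 0.706, 0.114 and 0.307 CPM. Plcg2, its relative in B cells, had 0.485, 19.4 and 7.06 CPM, an order shared with the summed NK cell and ILC1 markers, mostly Gzma. Both those and the B and plasma cell markers were lowest in mouse 1, and their part in its level was not tested.

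Regulators of store-operated entry included Saraf, which inactivates STIM1, at 515, 449 and 875 CPM, highest in mouse 3 and lowest in mouse 2 in the order of Orai1. Stimate, a STIM activator, had 0.176, 2.90 and 7.59 CPM, and Cracr2a, a calcium sensor of ORAI channels in T cells, had counts in mouse 2 only. In all, 4 of 9 of these regulators were detected. Of 8 calcium pumps and exchangers 5 were detected, led by the plasma membrane pump Atp2b1 (109 ± 13.5 CPM) and the reticulum pump Atp2a2 (59.2 ± 10.4). Of 6 genes of mitochondrial uptake 4 were detected, with the uniporter regulator Smdt1 at 566 ± 75.1 CPM and the pore gene Mcu at 5.19 ± 2.56.

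Of 22 other calcium channel genes, 9 were detected. The ATP-gated channel gene P2rx4 led with 155, 55.5 and 150 CPM, lowest in mouse 2, and P2rx7 had 12.3, 14.5 and 15.9 CPM. The voltage-gated calcium channel genes Cacna1d (14.9 ± 5.47), Cacna1a (7.38 ± 2.57) and Cacna1s (5.39 ± 5.67) were detected, whereas no ryanodine receptor gene reached 1 CPM in every mouse. Of 9 genes of the sodium-potassium pump and potassium cotransport 5 were detected, among them the pump's beta subunit gene Atp1b3 (173 ± 47.2 CPM; SD, n = 3).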

How the data were processed

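Libraries were made from sorted cells with an ultra-low-input SMARTer kit, per the labels' protocols. The authors deposited raw read counts per Entrez gene ID, 1 column per library. The submitters' processing notes name mm10, STAR 2.3.0 and CASAVA 1.8.2, and the counting program is not given in the sources used here. IDs were matched to RefSeq GRCm38.p6 (25275 of 27179), and 4 non-coding genes caught by the symbol rule were left out. CPM used TMM factors of 1.03, 0.987 and 0.989 (edgeR 4.0.16, R 4.3.3). Exon lengths came from GENCODE M21 and covered all 126 members. Variability was tested with an intercept-only edgeR fit after filterByExpr (minimum count 10), on counts of all genes, and the test was tested on simulated data. Pairs were tested with exact sign flips. Named genes were the members at 1 CPM in any library, all Stim, Orai and Itpr genes, Kcna3, Kcnn4, Trpm4, Trpm7, Trpv2 and Trpc1; other names were chosen after their values were seen. Members and lists were chosen with earlier results of these data known. Alternatives were other scalings (DESeq2 1.42.0 size factors), minima, pseudocounts, lengths, a robust prior, limma 3.58.1 and leaving out each mouse. Libraries are treated as 1 mouse each, and the spread also holds variation from sorting and amplification. Some items are not reported here.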

Additional observations from a re-analysis of the deposited data

How the results depend on the processing

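No paired analysis was possible because all 3 libraries belong to the same group. The count of 13 detected members was 13 without TMM and with DESeq2 size factors, 15 at a minimum of 0.5 CPM, 10 at 5 CPM and 15 at 10 counts in each library. Without each mouse in turn it was 13 to 18, highest without mouse 2, and each of these settings kept all 13 except the minimum of 5 CPM. Called members stayed at 0 in every variability setting run, with 1 to 3 at an unadjusted p under 0.05 where a p was given and a lowest adjusted p of 0.276 without mouse 1. Without a filter on low counts Orai2 entered the test, with an adjusted p of 0.927 in edgeR. Directions of 7 of the 8 pairs held under all settings run. The Stim1 and Stim2 difference was -0.42 to 1.27 without each mouse in turn and 1.55 with the longest transcript in place of summed exon length. The share held by Itpr1 among IP3 receptors moved from 71.2% to 79.7% with the longest transcript and 78.3% without division by length, that of Orai1 among Stim and Orai genes from 86.4% to 84.8% and 73.3%, and that of Kcnq5 among voltage-gated pore genes from 58.9% to 74.2% without division. Among these results 133 comparisons with an alternative held, 5 moved and 1 reversed. Part of the 133 could not change, because a share within a library does not depend on library scaling. Pair differences depend on scaling only through the added pseudocount. A pair that held kept its direction, while its size could change. The 5 that moved were these shares, under the length settings, which change only the length used, and the reversal was the Stim1 and Stim2 difference without mouse 1. Depth limits statements on the 80 members without a count to 0.115 to 0.171 CPM.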
